A study of Homo sapiens with 4 samples.

Results

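The promoters examined here belong to the zinc finger genes of human chromosome 19. Members were all consensus ATAC-seq peaks within 1 kb of an annotated transcription start of a protein-coding gene whose symbol begins with ZNF or ZFP, on the hg19 (GRCh37) build. The rule used positions and gene names alone, and it found 308 peaks of 139872 in all, at 204 of the 254 chromosome 19 genes that carry such a symbol. ATAC-seq marks open chromatin, because a transposase inserts sequencing adaptors where DNA is exposed. The cells were SEM, a B cell precursor leukemia line with an MLL rearrangement. All 4 libraries came from SEM cells expressing dCas9-KRAB-BSD, a Cas9 without nuclease activity joined to a KRAB repressor domain. In 2 libraries the guide was sgFLT3-DE-1, directed at a distal enhancer of FLT3 on another chromosome, and in 2 it was the non-target guide sgNT, so the control cells carried the repressor fusion as well. No library of cells without the fusion was analysed here.

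Most genes of this family encode proteins with a KRAB domain near one end and a row of C2H2 zinc fingers at the other. The fingers bind DNA, often within transposable elements, and the KRAB domain recruits TRIM28, which brings in the histone methyltransferase SETDB1 and HP1 proteins to form heterochromatin. The family grew by local duplication, and chromosome 19 carries long tandem clusters of it. The KRAB domain of dCas9-KRAB comes from a protein of the same family. In coding sequences translated from the annotation, a KRAB pattern was found in 211 of the 254 genes, and genes with the pattern had a median of 13 C2H2 fingers, with a maximum of 36. ZFP36 entered through its symbol only, since it encodes tristetraprolin, which binds AU-rich messenger RNA with fingers of another kind, and no C2H2 pattern was found in it.

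The promoters of 4 genes in 1 cluster, at 19.8 to 24.2 Mb, are shown because the results turn on it. ZNF724 and ZNF91 had the peaks of highest normalised count in the cluster, and ZNF85 and ZNF208 had no consensus peak. ZNF91 is known to repress SVA elements, a class of primate retrotransposon. Each window runs 5′ to 3′ along the gene from 250 bases before its annotated 5′ end to 50 after it. Capitals mark matches on either strand to CCGGAAG, the core of ETS factor sites, and to CCAAT, the NFY box. The windows lie at chr19:23433147-23433446 (minus strand, ZNF724), chr19:23578224-23578523 (minus strand, ZNF91), chr19:21105778-21106077 (plus strand, ZNF85) and chr19:22193702-22194001 (minus strand, ZNF208).
ZNF724: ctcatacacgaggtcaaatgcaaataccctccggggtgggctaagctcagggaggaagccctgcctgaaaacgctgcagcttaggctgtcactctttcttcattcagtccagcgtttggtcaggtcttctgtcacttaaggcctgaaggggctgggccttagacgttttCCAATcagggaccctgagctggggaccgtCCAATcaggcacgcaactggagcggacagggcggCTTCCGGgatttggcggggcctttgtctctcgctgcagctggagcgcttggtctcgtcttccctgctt
ZNF91: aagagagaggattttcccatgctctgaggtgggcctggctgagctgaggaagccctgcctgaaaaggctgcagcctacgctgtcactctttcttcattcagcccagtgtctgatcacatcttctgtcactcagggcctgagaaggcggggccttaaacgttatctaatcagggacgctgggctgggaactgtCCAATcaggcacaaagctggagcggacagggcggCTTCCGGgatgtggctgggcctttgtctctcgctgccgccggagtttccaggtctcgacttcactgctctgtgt
ZNF85: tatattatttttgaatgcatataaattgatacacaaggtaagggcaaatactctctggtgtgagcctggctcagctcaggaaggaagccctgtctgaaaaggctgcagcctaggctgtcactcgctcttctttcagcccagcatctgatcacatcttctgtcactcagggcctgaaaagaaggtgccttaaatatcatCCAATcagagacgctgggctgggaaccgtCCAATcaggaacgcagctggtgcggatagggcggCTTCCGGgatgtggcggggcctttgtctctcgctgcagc
ZNF208: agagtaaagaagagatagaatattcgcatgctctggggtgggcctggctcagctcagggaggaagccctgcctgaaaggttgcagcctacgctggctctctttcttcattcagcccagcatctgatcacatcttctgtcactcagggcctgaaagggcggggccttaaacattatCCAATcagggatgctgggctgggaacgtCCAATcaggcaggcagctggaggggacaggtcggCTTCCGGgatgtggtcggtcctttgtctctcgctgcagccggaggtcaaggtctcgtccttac
All 4 windows held 1 ETS match, and 1 or 2 CCAAT matches. Identity of the ZNF91 window was 83.2% with ZNF208, the highest of all 342 pairs of a cluster 4 gene with a peak and one without, and 69.9% with ZNF85. The median of these pairs was 62.3%, and it was 51.9% between cluster 4 windows and a sample of windows from the other genes of the family.

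Over the 254 genes, windows of this kind had a median GC content of 58.3%, against 62.2% for the other 1226 protein-coding genes of chromosome 19. CCGGAAG was found in 40.2% of the zinc finger windows, in 13.2% of those of other chromosome 19 genes and in 11.8% of all 20176 coding genes. CCAAT was found in 52.0%, 36.9% and 35.8% of the same sets. GGGCGGG, the GC box, was in 47.2% of zinc finger windows and 44.6% of the other chromosome 19 windows. The NRF1 motif was in 11.8% and 9.7%, AAGATGG of YY1 in 6.3% and 6.0%, ACTACAA of ZNF143 in 4.7% and 3.2%, TATAAA in 7.1% and 6.7%, and the cyclic AMP element TGACGTCA in 2.8% and 3.3%. CACGTG, the E-box, was in 3.5% against 9.1%, and TGATTNAT, a HOX and PBX site, in 0.8% against 1.5%. A match is a run of letters and not evidence of binding, and duplicated promoters are not independent of each other.

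The libraries held 2683477 (sgNT replicate 2), 3321429 (sgNT replicate 1), 3670758 (sgFLT3-DE-1 replicate 1) and 4831164 counts (sgFLT3-DE-1 replicate 2) in peaks. The median member peak held 20 and 35 counts under sgFLT3-DE-1, against 22 and 22 under sgNT. Levels are given as normalised CPM (counts divided by TMM-scaled totals), and per kb of peak where genes are compared. Log2 correlations between libraries were 0.875 and 0.887 within the guides and 0.915 and 0.922 between libraries of the same number. Of 7 B lineage markers, 5 had a promoter peak, with summed levels of 74.4 and 102.8 CPM under sgFLT3-DE-1, against 94.6 and 121 under sgNT, while CD79A and BLNK had none. T cell markers had a peak at 1 of 3 genes with at most 1.11 CPM in a library. Markers of other tissues were not all without signal. Of 3 genes of neural tissue, the neuronal SNAP25 and SYT1 had peaks and GFAP, an astrocyte marker, had none. The summed level of those peaks was 107.7 to 128.01 CPM over the libraries, above the B lineage sum in all but sgNT replicate 2. Of 3 liver genes APOB had a peak, with 1.55 to 3.20 CPM. HBB, an erythroid marker, had peaks whose summed level was 573 and 239 CPM under sgFLT3-DE-1, against 60.8 and 45.2 under sgNT, and ALAS2, KLF1 and HBA1 had no peak.

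Zinc finger genes had a promoter peak more often than the other genes of the chromosome. A peak lay within 1 kb of a start at 204 of 254 genes (80.3%, 95% Wilson interval 74.99 to 84.74%), against 673 of 1226 other chromosome 19 coding genes (54.9%, 52.1 to 57.7%). Zinc finger genes of other chromosomes had a peak at 221 of 287 (77.0%, 71.8 to 81.5%). The intervals cover counting over genes only. The order held within each GC class of the promoter window, from 73.9% against 28.2% below 50% GC to 90.9% against 69.4% at 70% and above. Genes with the KRAB pattern had a peak in 168 of 211 cases and genes without it in 36 of 43. Of the 308 member peaks, 207 covered an annotated start of the gene, 17 were linked to more than 1 zinc finger gene, and 34 also lay within 1 kb of the start of another coding gene. Member peaks were 79 to 767 bp long.

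The genes fell into 10 clusters, defined as runs of at least 5 genes with gaps of at most 500 kb, which held 239 genes and left 15 outside. Cluster 4, at 19.8 to 24.2 Mb, stood apart in the level of its promoter peaks. The median level of its 33 peaks was 72.0 CPM per kb, and the medians of the other clusters ran from 21.8 (cluster 8, at 52.1 to 54.0 Mb) to 45.2 (cluster 1, 4 peaks at 2.8 to 2.9 Mb). The 11 member peaks of highest CPM all belonged to cluster 4, as did 17 of the 20 of highest CPM per kb. The number 11 was taken from the ranking and marks where the run ended. Its last peak, of ZNF682, had 41.2 CPM, and the next, of ZNF558 in cluster 2, had 40.9.

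**Figure D1:**
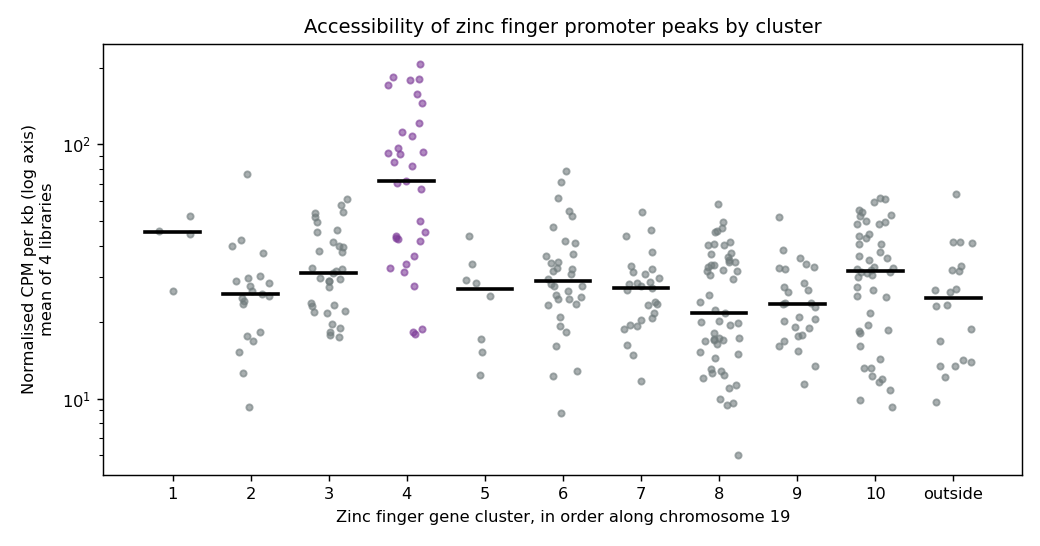
Normalised CPM per kb of each of the 308 zinc finger promoter peaks (mean of 4 libraries, log axis) by gene cluster in chromosomal order, with genes outside clusters at the right. Black bars are medians, 72.0 for cluster 4 and between 21.8 and 45.2 for the other clusters.

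ZNF724 had the highest count, with a peak at chr19:23432927-23433461 that covers its upstream region, first exon and part of an intron. It measured 104 and 78.5 CPM under sgFLT3-DE-1, against 85.9 and 69.7 under sgNT. The ZNF91 peak, at chr19:23578199-23578518 over the upstream region and first exon, was the highest per length, at 208 CPM per kb. Its libraries gave 84.0 and 55.5 CPM under sgFLT3-DE-1, against 61.5 and 65.3 under sgNT. The ranges of the 2 guides overlapped at both peaks. ZNF431 followed ZNF91 per length at 184 CPM per kb, then ZNF714 at 181, ZNF493 at 180 and ZNF429 at 171. ZNF93, which represses L1 retrotransposons, measured 32.1 and 29.9 CPM under sgFLT3-DE-1, against 29.7 and 27.6 under sgNT. ZNF43, a gene of many tandem fingers, measured 40.2 and 23.4 against 37.1 and 23.2. In ZNF43 the libraries numbered 1 were high and those numbered 2 low with either guide, whereas the ZNF93 values lay close together.

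Against other chromosome 19 promoter peaks of the same GC content, the level of cluster 4 was 2.85-fold higher per kb, from medians within GC classes weighted by the number of cluster 4 peaks. The fold was 4.07 and 2.43 in the sgFLT3-DE-1 libraries and 3.07 and 2.17 in the sgNT libraries, so it was above 1 in all 4 and larger in the libraries numbered 1. For the other 275 zinc finger peaks the same fold was 1.02, with 0.95 to 1.08 over the libraries. The peaks of cluster 4 had a median GC of 59.4% and a median length of 288 bp, beside 62.9% and 256.5 bp over all members. Distal peaks inside the cluster, more than 1 kb from any coding start, had a median of 17.8 CPM per kb (63 peaks) and other distal peaks of the chromosome 16.6 (1521 peaks). In a library from many cells, a site open in more cells cannot be told apart from a site more open in each.

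**Figure D2:**
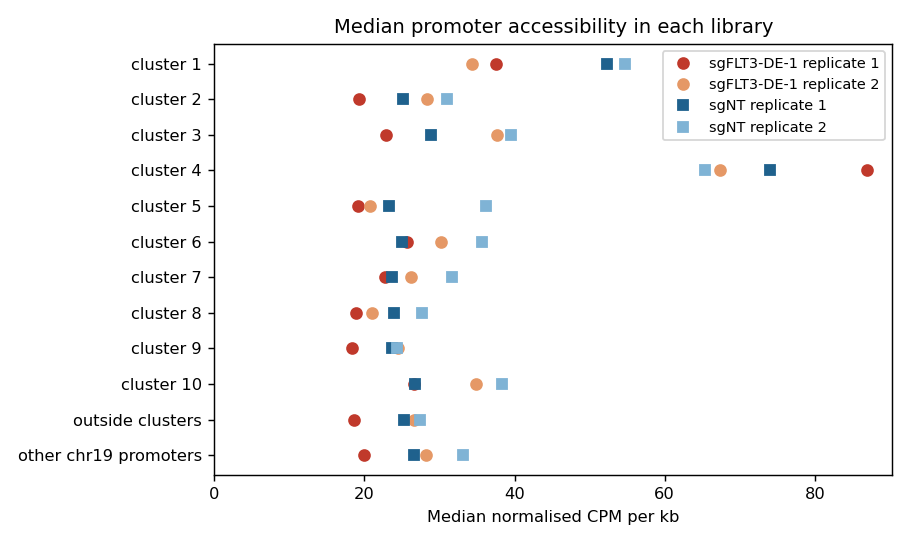
Median normalised CPM per kb in each library (circles sgFLT3-DE-1, squares sgNT, 2 replicates each) for the zinc finger promoter peaks of each cluster and for other chromosome 19 promoter peaks. In cluster 4 all 4 libraries lie between 65.4 and 86.9, and the first sgFLT3-DE-1 library is the highest there and low in most other rows.

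The order of the libraries also differed in cluster 4. Its median level was 86.9 and 67.4 CPM per kb under sgFLT3-DE-1, against 74.1 and 65.4 under sgNT, so replicate 1 was above replicate 2 with either guide. Over all 308 members the medians were 22.9 and 29.1 under sgFLT3-DE-1, against 26.8 and 34.7 under sgNT, with replicate 1 below replicate 2. With 2 libraries a guide this order is a description.

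Cluster 4 also had the lowest share of genes with a peak. It held 37 genes, 35 of them with the KRAB pattern, and 19 had a peak (51.4%, 35.9 to 66.6%), against 173 of 202 genes in the other clusters together. Genes with and without a peak came in runs. In chromosomal order, the 6 genes from ZNF101 to ZNF682 had a peak and the 7 from ZNF90 to ZNF430 had none. The 6 from ZNF714 to ZNF429 had one, ZNF100 had none, and ZNF43 had one. The 9 from ZNF208 to ZNF728 had none, the 5 from ZNF730 to ZNF681 had one, ZNF726 had none and ZNF254 had one.

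**Figure D3:**
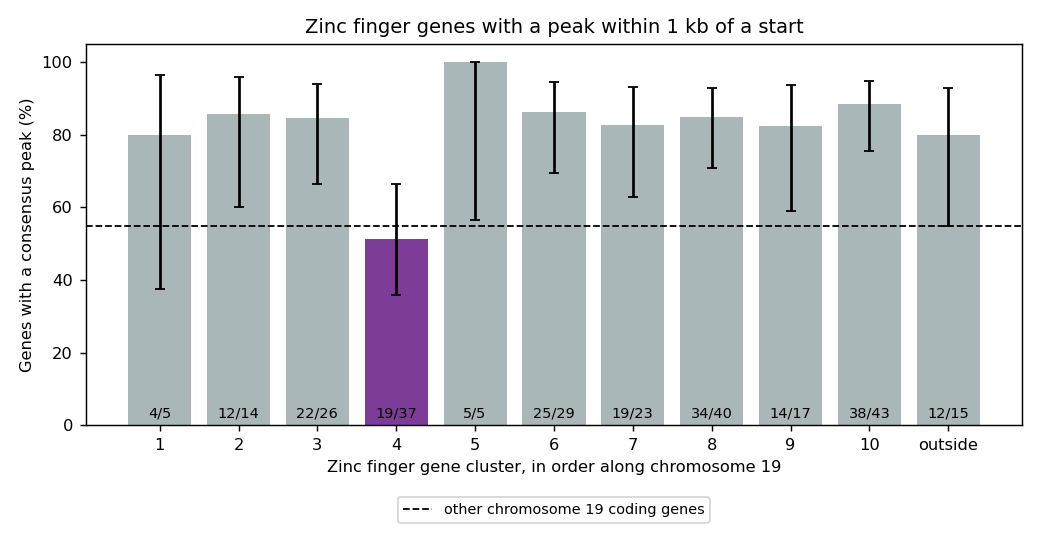
Share of zinc finger genes whose start has a consensus peak within 1 kb (%), by cluster in chromosomal order. Bars are percentages with 95% Wilson intervals, numbers at the foot are genes with a peak over all genes, and the dashed line is the 54.9% of other chromosome 19 coding genes. Cluster 4 is the lowest bar, at 19 of 37.

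The missing peaks of cluster 4 cannot be read as closed promoters from these files. The run from ZNF90 to ZNF430 lies in a stretch of 1114 kb with no consensus peak of any kind (chr19:20150497-21264764), and 5 genes of the run from ZNF208 lie in another of 633 kb (chr19:22095720-22728652). Neighbouring peaks on the chromosome are a median of 8.2 kb apart. Stretches like these, with at least 5 coding starts in a row and no peak between them, numbered 131 in the genome and held 1556 coding genes. The one with the most coding starts covered 146 at chr6:28459477-32590362, 9 of them of HLA genes, whose class I members encode antigen-presenting proteins of nearly every nucleated cell. On chromosome 19 there were 14, and 1 of them, at chr19:54527381-55627704, held 42 coding genes and no zinc finger gene. The study's notes keep uniquely mapped reads only, its methods describe another pipeline, and which of them made the counts is not clear from the sources used here. The submitters' processing notes name GRCh37.p13, whose alternate and patch sequences were not used here, so overlap of these stretches with such sequences was not checked. Closed chromatin, DNA missing from these cells and reads lost in mapping cannot be told apart in such stretches. Leaving out genes inside them, a peak was found at 19 of 25 genes of cluster 4 (76.0%, 56.6 to 88.5%) and 173 of 202 in the other clusters (85.6%, 80.1 to 89.8%). The 25 still include 3 genes in a stretch of 337 kb without a peak (chr19:22728808-23065711). It fell under the minimum of 5 starts, which was set after the data were seen. By the same count the share was 204 of 242 (84.3%) for all chromosome 19 zinc finger genes and 670 of 1108 (60.5%) for other genes of the chromosome. The stretches were defined by the absence of peaks, so leaving out their genes removes almost only genes without a peak. The higher share of cluster 4 in this count follows from that definition and is not a separate result.

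The annotated promoters of the 2 kinds of cluster 4 gene were alike in some measures and apart in others. The 19 genes with a peak had a median window GC of 53.3% and the 18 without one 55.5%, with CpG observed over expected of 0.47 and 0.45. CCAAT was in 18 of 19 and 18 of 18 windows, and CCGGAAG in 10 of 19 and 13 of 18. GGGCGGG was in 7 of 19 (36.8%) windows of genes with a peak and in 12 of 18 (66.7%) of those without. Median identity was 56.1% among the windows of genes with a peak (171 pairs) and 70.1% among those without (153 pairs), and the genes of either kind are not independent of each other. Over all clusters, cluster 4 had the highest share of windows with the ETS letters (62.2%), which was 23 of 37, and cluster 5 had 3 of 5 and cluster 8 had 24 of 40. Its median CpG ratio, 0.46, was the lowest of any cluster. Stretches of 50 bases that occur elsewhere in the primary GRCh37 assembly made up at most 3.59% of a window in genes with a peak and at most 27.5% in those without, where ZNF208 had the highest share. Most windows held none, 16 of 19 and 14 of 18.

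Outside cluster 4, 32 zinc finger genes had no peak, none of them in such an empty stretch. Among the genes chosen for their known roles, ZNF154, ZNF132, ZNF382 and ZNF536 had none, besides ZNF85 and ZNF208 of cluster 4. ZNF536, a repressor of neuronal differentiation, lies outside the clusters. ZNF274, which binds the 3′ ends of zinc finger genes and recruits SETDB1 to them, had its highest peak 869 bp upstream of a start, with 6 and 11 counts under sgFLT3-DE-1 and 8 and 10 under sgNT, too few to be tested.

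The leading peaks of the other clusters were lower than that of ZNF724. In cluster 2 it was the ZNF558 peak, which lies upstream and also within 1 kb of MBD3L1, with 33.4 and 37.4 CPM under sgFLT3-DE-1, against 47.8 and 45.2 under sgNT. In cluster 10 it was ZNF446 with 32.1 and 46.0 against 37.4 and 46.8. ZNF444, whose product activates an endothelial scavenger receptor gene, led cluster 9 with 29.04 and 29.63 against 39.8 and 34.4. The sgFLT3-DE-1 libraries were the lower ones at ZNF558 and ZNF444, and the ranges overlapped at ZNF446. ZNF527 led cluster 6 with 30.3 and 31.8 CPM under sgFLT3-DE-1, against 38.1 and 28.4 under sgNT. ZNF160 led cluster 8 with 20.4 and 17.0 against 27.1 and 27.6. The means over the libraries of the leading peaks of clusters 1, 3, 5 and 7 were 19.02 (ZNF57), 22.9 (ZNF799), 19.6 (ZNF302) and 19.4 CPM (ZNF575). Of the 10 leading peaks, ZNF160 had an unadjusted p under 0.05 but not an adjusted one, and the others had neither.

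The comparison of the guides asked whether accessibility at these promoters differed between cells with sgFLT3-DE-1 and cells with sgNT. No member passed edgeR's quasi-likelihood test. Of 308 peaks, 258 passed the filter on low counts, and 0 of them passed an FDR of 0.05 (smallest adjusted p = 1.0). Over all 82558 tested peaks 2 passed (0.00242%), both higher with sgFLT3-DE-1 and at promoters on other chromosomes. No peak was thus called lower in this fit. The paper, by its own analysis, reports a decrease at the targeted FLT3 enhancer at an FDR under 0.05. The 0 among members therefore does not show that these promoters were unchanged. DESeq2 and limma-voom called 0 members too. At an unadjusted p under 0.05 there were 9 members lower with sgFLT3-DE-1 and 1 higher (3.49% and 0.388%), against 1.07% and 0.827% of all tested peaks. The shares were 10.7% and 0% at other chromosome 19 promoters, and 3.27% and 0.545% at zinc finger promoters of other chromosomes. Both sgFLT3-DE-1 libraries lay below both sgNT libraries at 67 members and above both at 14, that is 25.97% and 5.43%, where the shares over all tested peaks were 13.8% and 13.7%. They were 37.7% and 2.87% at other chromosome 19 promoters, and 23.7% and 6.81% at zinc finger promoters of other chromosomes. The labels do not say whether replicates were separate cultures, so these p-values measure only the spread between these libraries.

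Estimates leaned towards lower values with sgFLT3-DE-1, and less so than at other promoters of the chromosome. The median log2 fold change of the 258 peaks was −0.20, with 183 estimates below 0 and 75 above (70.9% below, against 48.1% of all tested peaks). It was −0.31 at 767 other chromosome 19 promoter peaks, −0.06 at 367 zinc finger promoter peaks of other chromosomes, −0.08 at 16768 other promoter peaks and 0.01 over all tested peaks. The median stayed below 0 with each library left out but moved widely. It was −0.08 without sgFLT3-DE-1 replicate 1 and −0.41 without replicate 2, and −0.35 without sgNT replicate 1 and −0.06 without replicate 2. A loess correction of each library for GC content gave −0.11.

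**Figure D4:**
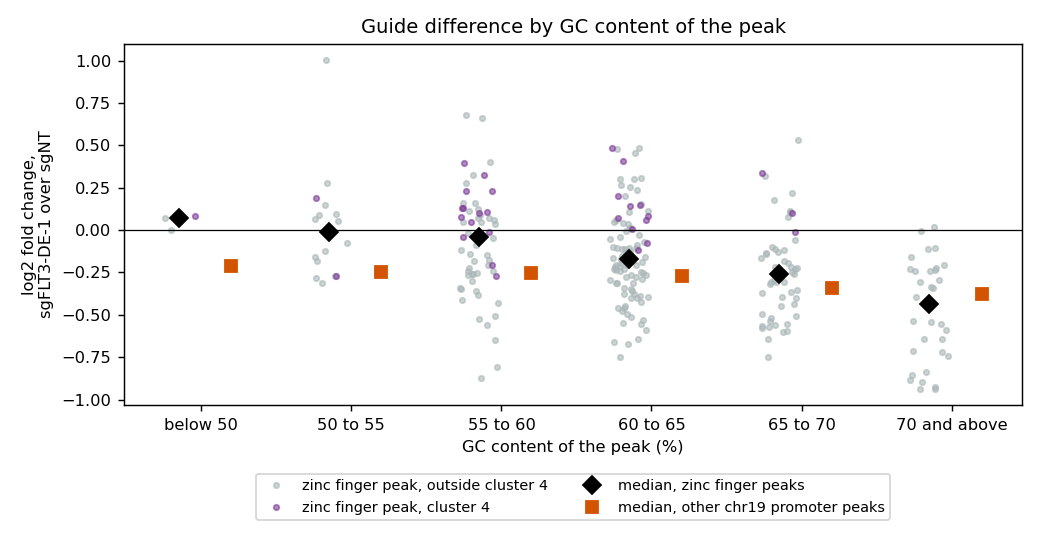
Log2 fold change (sgFLT3-DE-1 over sgNT) of tested zinc finger promoter peaks by GC class of the peak, with cluster 4 in purple, class medians as black diamonds, and medians of other chromosome 19 promoter peaks as orange squares. Medians of both sets fall with GC, from 0.07 to −0.44 and from −0.21 to −0.38.

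The estimates fell with the GC content of the peak. The zinc finger medians were −0.04 at 55 to 60% GC (61 tested peaks), −0.17 at 60 to 65% (94), −0.26 at 65 to 70% (51) and −0.44 at 70% and above (33), and 0.07 and −0.01 in the lower classes, which held 3 and 16. The other promoters gave −0.25, −0.27, −0.34 and −0.38 in the same 4 classes. At matched GC the zinc finger peaks were thus above the others by 0.11 on the log2 scale, weighted over the classes, and below them by 0.06 in the class of highest GC. The difference rested on single libraries. It was 0.0045 without sgFLT3-DE-1 replicate 1, −0.00016 without sgNT replicate 2, 0.21 without sgFLT3-DE-1 replicate 2 and 0.15 without sgNT replicate 1. Cluster 4 carried much of it, at 0.36, and the other members were above by 0.06.

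Cluster 4 had the highest median among the clusters, 0.10, with 23 of 31 tested peaks above 0, where 42817 of all 82558 tested peaks were. Distal peaks inside the cluster had a median of 0.08 (29 tested), and other distal peaks of the chromosome −0.10 (809 tested). The median GC of these 2 sets differed, at 47.5% and 56.9%. All distal peaks of the genome, with a median GC of 46.5%, had a median log2 fold change of 0.05 (64398 tested). The promoter medians of the other clusters ran from −0.54 (cluster 1, 4 peaks) and −0.39 (cluster 2) to −0.10 (cluster 6). This order depended on single libraries. Without sgFLT3-DE-1 replicate 1 the median of cluster 4 was −0.08 and that of cluster 3 the highest at 0.09, and without sgNT replicate 2 cluster 10 led with 0.10 against 0.05. With each library left out in turn, cluster 3 ran from −0.63 to 0.09, cluster 6 from −0.39 to 0.08, cluster 10 from −0.25 to 0.10 and cluster 5 from −0.93 to −0.15. No peak of cluster 4 reached an unadjusted p under 0.05. Of its 31 tested peaks, 5 lay above both sgNT libraries in both sgFLT3-DE-1 libraries and 0 lay below both. The shares over all tested peaks were 13.7% and 13.8%.

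The member of smallest p was the peak between ZNF473 and VRK3 (chr19:50528612-50529008), which covers starts of both genes. ZNF473 acts in the processing of histone messenger RNA. The peak measured 11.4 and 11.5 CPM under sgFLT3-DE-1, against 23.4 and 18.4 under sgNT, and edgeR gave −0.87 on the log2 scale (SE 0.294, adjusted p = 1.0). An intronic ZNF653 peak, 397 bp from a start (chr19:11615945-11616257), measured 8.03 and 11.5 against 15.4 and 22.8, with −0.94 (SE 0.318). ZNF846 gave 8.34 and 7.74 against 14.4 and 16.4, and ZNF83 gave 5.25 and 5.31 against 11.03 and 8.41. At these 4 peaks the guides did not overlap, which choosing the smallest p favours. Over all tested peaks, 13.8% were separated in this direction. The last 3 of the 4 named peaks had GC contents of 73.8%, 70.3% and 70.1%, in the class where other promoters were also lowest.

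In the other direction, ZNF304 (chr19:57862446-57862705) measured 12.97 and 14.37 CPM under sgFLT3-DE-1, against 8.69 and 8.41 under sgNT, and edgeR gave 0.68 on the log2 scale (SE 0.329, unadjusted p = 0.0487, adjusted p = 1.0). ZNF814 held 12 and 20 counts against 3 and 8. A second ZNF254 peak gave 37.99 and 25.21 CPM against 24.7 and 22.8, and ZNF614 gave 5.56 and 5.53 against 2.67 and 4.40. The groups did not overlap at any of the 4, and the ZNF254 values of sgFLT3-DE-1 replicate 2 and sgNT replicate 1 were nearly equal. Choosing the smallest p favours such separation here too, and 13.7% of all tested peaks were separated in this direction.

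**Figure D5:**
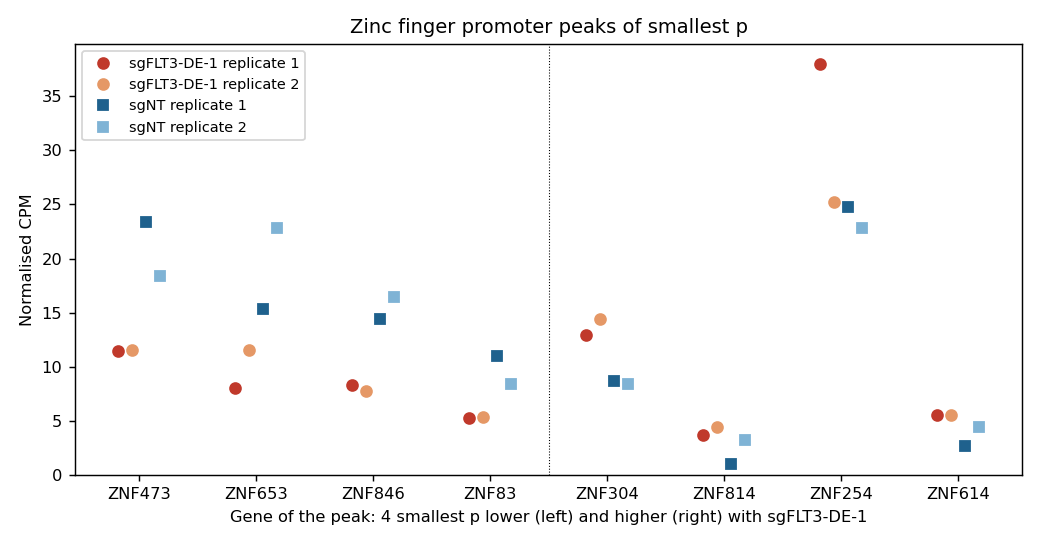
Normalised CPM in each library (circles sgFLT3-DE-1, squares sgNT) of the zinc finger promoter peaks of smallest p in each direction, 4 lower and 4 higher with sgFLT3-DE-1. The ZNF473 values are 11.4 and 11.5 against 23.4 and 18.4, and none of these peaks passed the FDR threshold.

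Genes with known roles elsewhere in the family showed no call. ZNF224, a repressor of the aldolase A gene, measured 6.49 and 7.30 CPM under sgFLT3-DE-1, against 10.0 and 10.4 under sgNT. ZNF331, which is imprinted in some tissues, measured 8.65 and 7.74 against 9.36 and 14.0. Both were lower in each sgFLT3-DE-1 library. ZNF420, a regulator of p53 activity, measured 33.7 and 25.7 against 26.4 and 32.03 with overlap. ZFP28 measured 4.32 and 7.30 against 5.01 and 6.01, and ZFP36 4.02 and 7.74 against 7.35 and 7.61. ZNF649 held 0, 15, 8 and 8 counts, and a count of 0 allows up to 3.

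Genes with the KRAB pattern and genes without it were also set side by side, and peaks linked to both kinds entered both sets. The 252 peaks of the first kind had a median level of 28.7 CPM per kb and a median GC of 62.1%, and the 60 of the second 30.7 and 65.5%. Their median log2 fold changes were −0.16 (210 tested) and −0.30 (52 tested), and the second kind had the higher GC.

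The machinery that KRAB proteins recruit was read from 23 genes, of which 20 had a promoter peak. The peak at the start of TRIM28 itself, on the same chromosome, measured a mean of 29.4 CPM under sgFLT3-DE-1, against 32.7 under sgNT, and the main SETDB1 peak 12.8 and 16.3. Of 50 peaks 42 were tested, with a median log2 fold change of −0.17, and 28 estimates lay below 0, where 48.1% of all tested peaks and 61.8% of promoter peaks on other chromosomes did. None passed an FDR of 0.05. At an unadjusted p under 0.05 there were 3 lower and 0 higher, where 1.07% and 0.827% of all tested peaks were. They were 2 peaks of UHRF1, which reads hemimethylated DNA, at −1.10 (SE 0.423) and −0.78 (SE 0.360), and that of the deacetylase gene HDAC1, at −0.61 (SE 0.294). Both UHRF1 peaks lie on chromosome 19, with 74.9% and 77.2% GC, and the HDAC1 peak had 73.1%. Of other chromosome 19 promoter peaks 10.7% were lower at this threshold, against 2.12% of other promoter peaks on other chromosomes. The other chromosome 19 promoters of 70% GC and above had a median of −0.38. The 3 genes with no peak, EHMT2, SUV39H1 and ATRX, all lay in stretches of at least 5 coding starts without any consensus peak.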

How the data were processed

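ATAC-seq libraries of SEM cells took their groups from the treatment labels and titles. Raw counts for 139872 consensus peaks were deposited by the authors, with the positions of these regions on hg19 (processing notes also name GRCh37.p13). The methods name Bowtie2 2.2.9 after cutadapt 1.18, whereas MACS2 2.1.1.20160309, bedtools 2.24.0, SAMtools 1.2, BWA and Trim Galore 0.4.4 appear in the processing notes from the submitters. The study's notes describe uniquely mapped pairs and peaks called from fragments under 100 bp, with reproducible peaks of both guides merged. Unique mapping lowers counts where sequence is repeated, which bears on duplicated genes. The fragments counted, and any shift of reads, are not given in the sources used here.

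Counts were tested with edgeR 4.0.16 in R 4.3.3 (filterByExpr, minimum count 10 and total 15, TMM factors, quasi-likelihood test, group as the only term), with Benjamini-Hochberg adjustment over all 82558 tested peaks and a threshold of FDR 0.05. Each SE was the size of the log2 fold change divided by the root of its F statistic. The procedure was tested on simulated counts. Counts of replicates differed by more than sampling noise, so all libraries were kept as separate samples. Promoters, 5′ ends and coding sequences came from GENCODE 44 on GRCh37, and sequences and GC content from the GRCh37 reference. Domain patterns were searched in translated coding sequences, which may be incomplete for some genes. Alternatives were DESeq2 1.42.0, limma-voom (limma 3.58.1), a loess GC correction (span 0.3), the replicate number as a block, both together, loess offsets over mean count, relative log expression factors, no factors, no filter, a minimum mean count of 50, each library left out, and narrower promoter rules. Named peaks were the one of highest mean normalised CPM in each cluster, the 4 of smallest p in each direction, any past FDR 0.05, and the highest of each of 17 genes of known role. Other genes were named after their values were seen. The members, lists and tests were chosen with earlier results of these data known. The search for empty stretches, the domain search, the repeat check and the list of related genes were added after seeing the files. 1 marker gene is not reported here. Intervals cover counting error only.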

Additional observations from a re-analysis of the deposited data

How the results depend on the processing

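With 2 libraries a guide, an exact permutation test of a single value cannot go below p = 0.333, and median member counts of 20 to 35 limit the precision of single peaks. The count of members past FDR 0.05 was 0 in each direction in every setting but 1. With the replicate number as a block, 1 member (ZNF653, adjusted p = 0.0393, edgeR; log2 fold change −0.97) passed, where 74 of all tested peaks did, and deviations of same-numbered libraries from their group means correlated at 0.397; with 2 pairs the numbers were not taken as pairing.

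At an unadjusted p under 0.05, the main counts of 9 lower and 1 higher became 38 and 2 with the block, 19 and 3 with block and GC correction, 20 and 0 without a filter, 1 and 0 at a mean count of at least 50, and 3 and 0 with DESeq2. The lower count was 5 with the GC correction and 16 with limma-voom, and the higher count 0 with loess offsets. Leaving out each library gave 3 to 39 lower and 0 to 4 higher. Shares over all tested peaks at this unadjusted p are given for the main fit only, 1.07% lower and 0.827% higher by edgeR. At FDR 0.05 the block raised the calls over all tested peaks from 2 to 74. Whether the counts of members in the other settings moved more than those of all tested peaks was not tested. The difference from other promoters of the same GC was 0.20 at a mean count of at least 50 and −0.00016 to 0.21 with each library left out. With gene 5′ ends only, the log2 level over other promoters of the same GC was −0.026 in place of 0.12, and 71.3% of genes had a peak. That level was also lower with loess offsets (0.026), the GC correction (0.032), a 500 bp window (0.030) and each library left out (0.019 to 0.060). The 0.12 included peaks under the filter on low counts. The fits with loess offsets, the GC correction or a library left out held only peaks that passed it. What this difference in peaks contributed to the lower values was not tested. ZNF43 (−0.013) and ZNF420 (−0.046) changed sign without a filter, ZNF527 (0.032) and ZNF446 (0.0046) with the GC correction, and ZNF527 (0.052) with block and GC correction. Leaving out a library turned ZNF91 (−0.20 to 0.40), ZNF43 (−0.39 to 0.43), ZNF420 (−0.19 to 0.20), ZNF649 (−0.82 to 0.17), ZFP36 (−0.90 to 0.042), ZFP28 (−0.35 to 0.40), ZNF799 (−0.80 to 0.058), ZNF446 (−0.39 to 0.12) and ZNF527 (−0.32 to 0.12). Why these values moved was not tested, beyond fewer peaks or libraries entering some settings. The level of cluster 4 over other zinc finger promoters stayed between 1.15 and 1.54 on the log2 scale (1.38 in the reported fit). Of 366 alternative values of the 27 tested named peaks 347 kept their direction and side of the threshold, and of 185 alternative cluster medians 173 stayed within the spread between libraries. With a library left out, the medians of clusters 3, 4, 6 and 10 turned sign.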

Other observations

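Related zinc finger genes of chromosome 19 whose symbols begin otherwise were listed after the data were seen. Of 14 genes named ZSCAN, ZIM, ZIK, PEG3 or ZBTB, 6 had a promoter peak. Among all chromosome 19 coding genes outside the ZNF and ZFP set the share was 54.9%. PEG3 and ZIM2, an imprinted pair, had none, and neither had ZSCAN4, which is expressed in early embryos. ZBTB7A, a regulator of B lineage commitment, had the peak of highest count, with a mean of 22.1 CPM. The 12 peaks had a median level of 32.1 CPM per kb. Of 11 tested peaks 5 lay below 0, where 78.9% of other chromosome 19 promoter peaks and 48.1% of all tested peaks did. The median log2 fold change was 0.04, and by edgeR 0 passed an FDR of 0.05 or an unadjusted p under 0.05. At that unadjusted p, 10.7% of other chromosome 19 promoter peaks were lower and 0% higher.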
